A study of Mus musculus with 15 samples.

Results

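The genes described here are 30 members of the cholesterol and fatty acid synthesis pathways, taken by symbol from the table of raw counts. All 30 symbols were among the 25382 in the table, and all 30 passed the filter on low counts that left 15190 genes for testing. They fall into 18 enzymes of sterol synthesis (ACAT2, HMGCS1, MVK, PMVK, MVD, IDI1, FDPS, FDFT1, SQLE, LSS, CYP51A1, TM7SF2, MSMO1, NSDHL, HSD17B7, EBP, SC5D and DHCR7), 5 genes of sterol sensing and transport (SREBF1, SREBF2, SCAP, INSIG1 and STARD4) and 7 enzymes of fatty acid synthesis (ACLY, ACACA, FASN, SCD, ELOVL6, FADS1 and FADS2). The libraries came from primary tumours formed by cells of the line MDA-MB-231 (triple-negative breast cancer, human, labelled GFP+ Luc+) in mice of a strain given as Nod/Skid. The cells had been divided by their hold under fluid shear into weakly adherent cells (10 dyn/cm2, 6 libraries), strongly adherent cells (50 dyn/cm2, 4 libraries) and unsorted cells without shear (5 libraries). All groups share the cell line, its reporters, the host strain and culture in DMEM with serum before use, and no age of the mice is given in the sources used here. Each library is named by its class and by the number in its title: 4, 5, 6 and 9 occur in all 3 classes, 7-8 in the unsorted and weakly adherent classes, and 10 in the weakly adherent class alone. What the number stands for is not in the labels, nor whether libraries of a class come from separate animals, so p-values measure the spread between these libraries, which may be technical. No library has a label for its number of tumour or host cells.

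Cells make cholesterol from acetyl-CoA through mevalonate, isoprenoid units, squalene and lanosterol. Fatty acids are made from the same acetyl-CoA by a separate set of enzymes that build, elongate and desaturate the chain. Both sets are known targets of the SREBP transcription factors, which SREBF1 and SREBF2 encode. When membranes hold enough sterol, INSIG proteins keep the SREBP escort SCAP in the endoplasmic reticulum. When sterol is low, SCAP carries SREBP to the Golgi, where it is cut and released to the nucleus. The SREBF2 product is known chiefly for the sterol genes and the SREBF1 product for the fatty acid genes.

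The totals of the 15 libraries ran from 30372619 to 45434799 counts, and the members had between 272 and 17433 counts in a library. Levels are given in CPM, the count relative to the library total after TMM scaling, and since gene length was not used, levels are compared between libraries and not between genes. MDA-MB-231 is known as a mesenchymal line with much vimentin, little E-cadherin and no steroid receptors. ESR1 and PGR reached at most 0.234 and 0.950 CPM, and the vimentin gene VIM was at 6489 to 7399 CPM in the 3 libraries of number 6 and at 1143 to 4478 CPM in the other 12. CDH1, which encodes E-cadherin, stood at 0.267 to 5.56 CPM in number 6, as known for the line, and at 53.1 to 549 CPM in the other 12, which goes against it. The epithelial gene EPCAM was likewise at 25.0 to 50.7 CPM in number 6 and at 115 to 480 CPM elsewhere, so number 6 stands apart and the labelled line is not borne out by CDH1 in 12 libraries. Markers of striated muscle (18 genes) summed to 2909 CPM in strongly adherent library 5 and to 179 to 1125 CPM in number 6. In the remaining libraries that sum was as low as 6.81 CPM, with ACTA1, skeletal muscle actin, the most abundant at 864 CPM in strongly adherent library 5. Lipid-making adipocytes are another possible source of these genes, and 18 of their markers summed to 152 to 219 CPM across all libraries, mostly from PNPLA2, CEBPA and PPARG. Of these 18, 3 (ADIPOQ, RETN and TUSC5) were at 0 counts in all libraries, and 9 never reached 1 CPM, FABP4 among them. The sum was highest in weakly adherent library 7-8, which also held the highest level of LPL (13.0 CPM), GPD1 (11.1 CPM), CEBPA (42.7 CPM), PPARG (38.3 CPM) and PLIN1 (2.39 CPM). The part of adipocytes in the member values was not tested. Since these are bulk samples, fewer cells of a type and less RNA per cell cannot be told apart.

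The members varied little between libraries as a whole. The median SD of log2 CPM over the 15 libraries was 0.24 for the 30 members and 0.29 for all genes tested. It was 0.22 for the sterol enzymes, 0.39 for the regulators and 0.29 for the fatty acid enzymes. The widest range was that of STARD4, which encodes a carrier of cholesterol between membranes, with 4.85-fold between its highest and lowest library. IDI1, the isomerase that readies isoprenoid units for condensation, spanned 3.43-fold, the sterol reductase gene TM7SF2 3.36-fold and INSIG1 3.24-fold. The narrowest were MVK, mevalonate kinase, with 1.47-fold, SCAP with 1.47-fold and ACLY, which makes cytosolic acetyl-CoA from citrate, with 1.49-fold. Strongly adherent library 5 had the lowest level of 9 members (30% of members, against 16.8% of all genes tested) and unsorted library 6 the highest level of 11 (36.7%, against 13.5%).

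**Figure D1:**
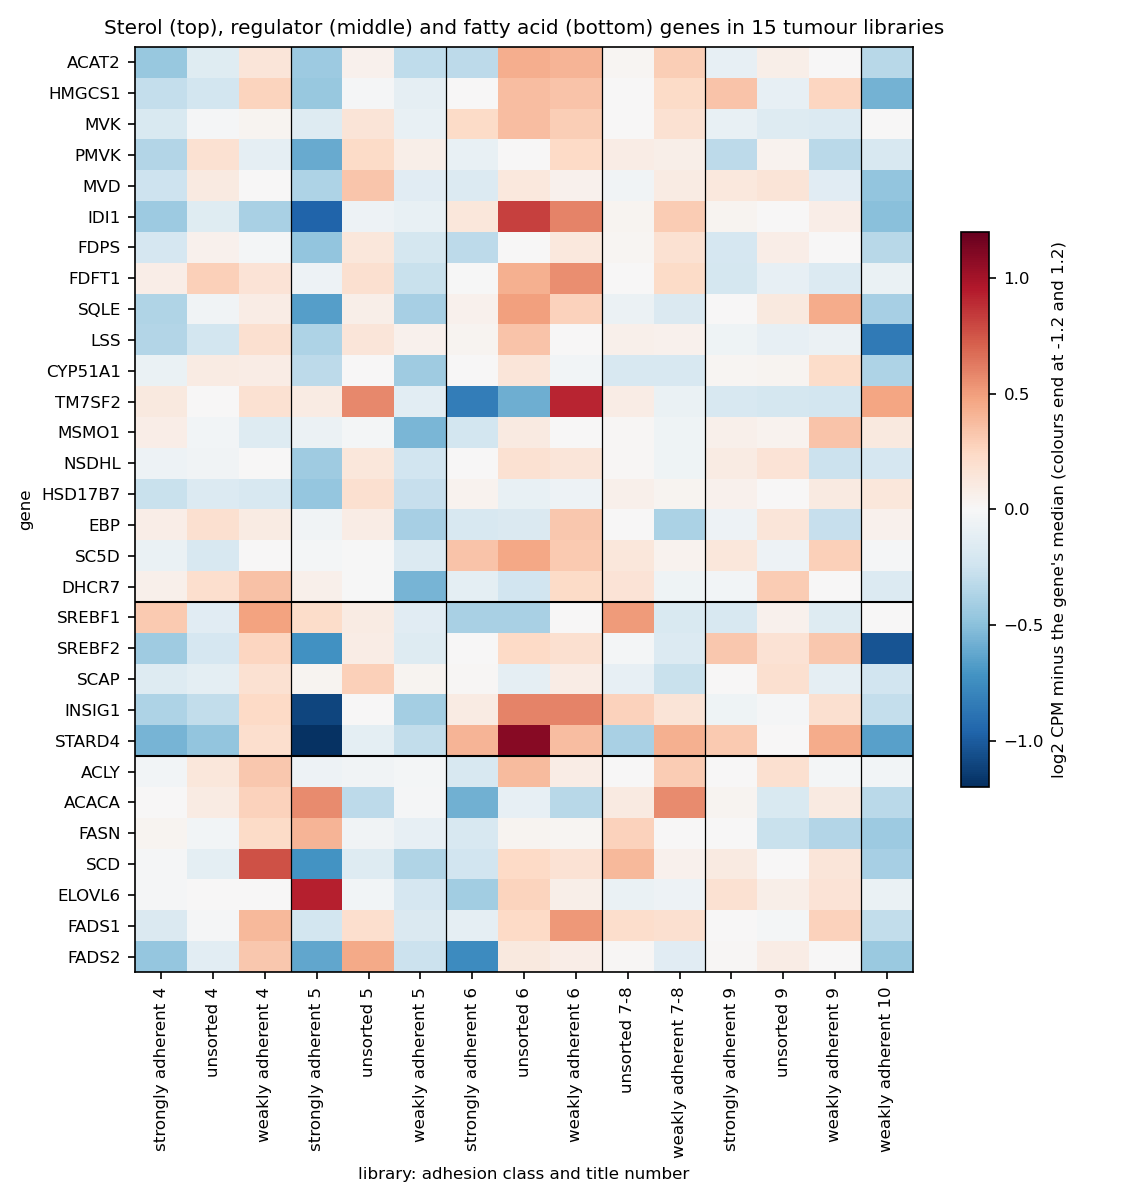
Log2 CPM of each of the 30 members (rows, grouped as sterol enzymes, regulators and fatty acid enzymes) in 15 libraries (columns, by title number), shown as the difference from the gene's median over the libraries, with colours that end at -1.2 and 1.2. STARD4, INSIG1 and IDI1 are lowest in strongly adherent library 5 and high in number 6, while ELOVL6, ACACA and FASN are highest in strongly adherent library 5. ACACA is practically as high in weakly adherent library 7-8.

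The libraries of title number 6 were compared with the other 12, with the adhesion class as a term of the fit. Number 6 was singled out with earlier results of these data known. Its 3 libraries deviated together from their class means over all genes tested (r = 0.75, 0.77 and 0.68). Between libraries of different number and class the median r was -0.0264. The libraries of number 6 may thus be a single unit. The SEs and p-values of this contrast treat them as separate and do not measure the spread between title numbers. Of the 30 members, 6 were called, and all 6 rose in number 6: the mevalonate pathway enzymes MVK and IDI1, the squalene synthase gene FDFT1, the sterol desaturase gene SC5D, the sterol sensor INSIG1 and the cholesterol carrier STARD4. The call is an adjusted p under 0.05 by edgeR's quasi-likelihood test with Benjamini-Hochberg adjustment over all genes, which called 26.5% of all genes here, 10.4% as higher and 16% as lower in number 6. The 6 members are thus 20% of the 30, where 26.5% of all genes were called in either direction. By direction, 20% of members were called higher, against 10.4% of all genes, and 0 were called lower, against 16%. Whether these shares differ was not tested. At an unadjusted p under 0.05 there were 9 members (30%, against 39.6% of all genes). The calls were 4 of 18 sterol enzymes, 2 of 5 regulators and 0 of 7 fatty acid enzymes, and whether the branches differ was not tested.

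IDI1 stood at 72.9 CPM in strongly adherent, 117 CPM in unsorted and 99.95 CPM in weakly adherent library 6. In the other 12 libraries it ranged from 34.1 to 81.5 CPM with a median of 62.9 CPM. Unsorted and weakly adherent library 6 were above all other libraries, and strongly adherent library 6 lay within the range of the rest. The log2 fold change was 0.70 ± 0.16 (SE, 3 against 12 libraries, edgeR adjusted p = 0.00598), which is 1.63-fold. MVK, which phosphorylates mevalonate, was at 47.7, 52.6 and 50.2 CPM in the strongly adherent, the unsorted and the weakly adherent library of number 6. The others ran from 35.9 to 46.4 CPM with a median of 39.4 CPM, so the groups did not overlap. Its log2 fold change was 0.34 ± 0.09 (edgeR adjusted p = 0.0102).

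FDFT1 joins 2 farnesyl units into squalene, the committed step towards sterols. In number 6 it stood at 99.4 CPM (strongly adherent), 135 CPM (unsorted) and 147 CPM (weakly adherent), against 82.7 to 122 CPM with a median of 97.9 CPM in the others. The strongly adherent library 6 was near the median of the others, and the other two libraries of the number were above all of them. The log2 fold change of FDFT1 was 0.34 ± 0.12, and its adjusted p of 0.0492 lay just under the threshold in edgeR. SC5D, a desaturase near the end of the pathway, was at 67.2, 73.2 and 65.9 CPM in the same order, above the 46.4 to 64.8 CPM of all others. Its log2 fold change was 0.36 ± 0.10 (edgeR adjusted p = 0.0130). MVK and SC5D were the members whose groups did not overlap, 6.67% of the 30, where 5.63% of all genes tested were higher and 10.4% lower in number 6 without overlap.

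INSIG1, itself a known SREBP target that holds the pathway in check, stood at 49.4, 70.0 and 70.0 CPM in number 6 (strongly adherent, then unsorted, then weakly adherent). In the other 12 it ran from 21.6 to 56.1 CPM with a median of 45.3 CPM. Again the strongly adherent library 6 lay within the range of the others. Its log2 fold change was 0.58 ± 0.17 (edgeR adjusted p = 0.0216), or 1.49-fold. STARD4 was at 22.0, 35.3 and 21.5 CPM in number 6 and between 7.28 and 22.6 CPM, with a median of 14.4 CPM, elsewhere. Only unsorted library 6 was above all other libraries. The log2 fold change of STARD4 was 0.82 ± 0.27 (edgeR adjusted p = 0.0336), with a 95% interval from 0.25 to 1.39.

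**Figure D2:**
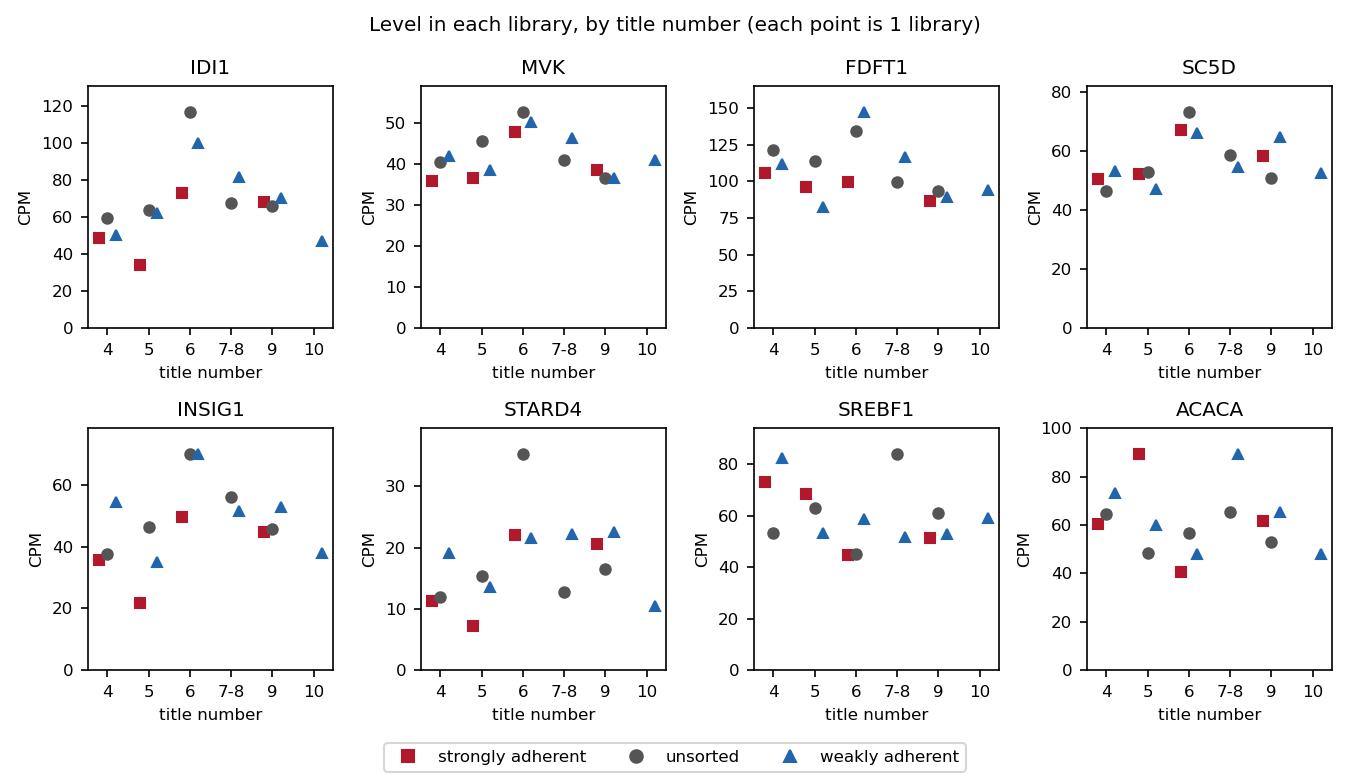
CPM (y axis, from 0) of the 6 members called in number 6 and of SREBF1 and ACACA in each library by title number (x axis), with 1 point per library and a marker for each adhesion class. All 3 points of number 6 lie above every other point for MVK and SC5D, and the strongly adherent point of number 6 lies among the other libraries for IDI1, FDFT1 and INSIG1.

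The other sterol enzymes did not pass in this fit. HMGCS1, which makes the HMG-CoA that feeds the mevalonate pathway, was at 57.3, 74.1 and 72.5 CPM in number 6 (strongly adherent, then unsorted, then weakly adherent), against 38.6 to 72.6 CPM in the others (log2 fold change 0.29 ± 0.17, edgeR adjusted p = 0.211). ACAT2, the acetyl-CoA acetyltransferase of the same entry step, was at 28.4, 47.8 and 47.1 CPM against 25.7 to 43.6 CPM (0.31 ± 0.13, edgeR adjusted p = 0.0956). For both genes the unsorted and weakly adherent libraries of number 6 were high and the strongly adherent library was not. SQLE, squalene epoxidase, had a log2 fold change of 0.39 ± 0.16 (edgeR adjusted p = 0.0835). LSS, which closes the sterol ring system, was at 91.4, 114 and 89.5 CPM in number 6, against 49.6 to 102 CPM elsewhere (0.24 ± 0.16, edgeR adjusted p = 0.262). The remaining 10 sterol enzymes had log2 fold changes from -0.08 for TM7SF2 to 0.18 for PMVK. TM7SF2 was split within number 6, with its lowest levels of all libraries in strongly adherent and unsorted library 6 (10.5 and 12.5 CPM) and its highest in weakly adherent library 6 (35.3 CPM). The median log2 fold change was 0.18 over the sterol enzymes and -0.01 over all genes tested.

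Neither SREBP gene passed in this fit of number 6, and their estimates had opposite signs. SREBF2 stood at 99.8, 117 and 114 CPM in number 6 (strongly adherent, then unsorted, then weakly adherent) and from 48.8 to 125 CPM elsewhere (log2 fold change 0.23 ± 0.22, edgeR adjusted p = 0.463). SREBF1 was at 44.8, 45.0 and 58.9 CPM in the same order and between 51.5 and 84.1 CPM in the others (-0.34 ± 0.17, edgeR adjusted p = 0.135). The 2 lowest SREBF1 levels of all libraries were those of strongly adherent and unsorted library 6. SCAP had a log2 fold change of 0.01 ± 0.11.

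In the fatty acid branch, ACACA, the carboxylase that makes malonyl-CoA, had the largest estimate and did not pass. It was at 40.5, 56.6 and 47.9 CPM in number 6 (strongly adherent, then unsorted, then weakly adherent), against 48.1 to 89.5 CPM elsewhere (log2 fold change -0.42 ± 0.18, edgeR adjusted p = 0.0982). FASN, the fatty acid synthase gene, was at 178, 208 and 207 CPM in number 6, against 149.9 to 270 CPM elsewhere (-0.04 ± 0.15). ACLY was at 279, 414 and 340 CPM, which are both its lowest and its highest level among the 15 libraries (0.05 ± 0.11). SCD, the desaturase that makes oleate, was at 144, 199 and 190.1 CPM against 103 to 287 CPM (0.07 ± 0.21). The elongase gene ELOVL6 had -0.10 ± 0.19, and the desaturase genes FADS1 and FADS2 had 0.21 ± 0.13 and -0.07 ± 0.17. The median of the branch was -0.04, and it was 0.13 without strongly adherent library 6 and -0.14 without weakly adherent library 6. Strongly adherent library 6 held the lowest level of ACLY, ACACA, ELOVL6 and FADS2 among the 15 libraries.

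**Figure D3:**
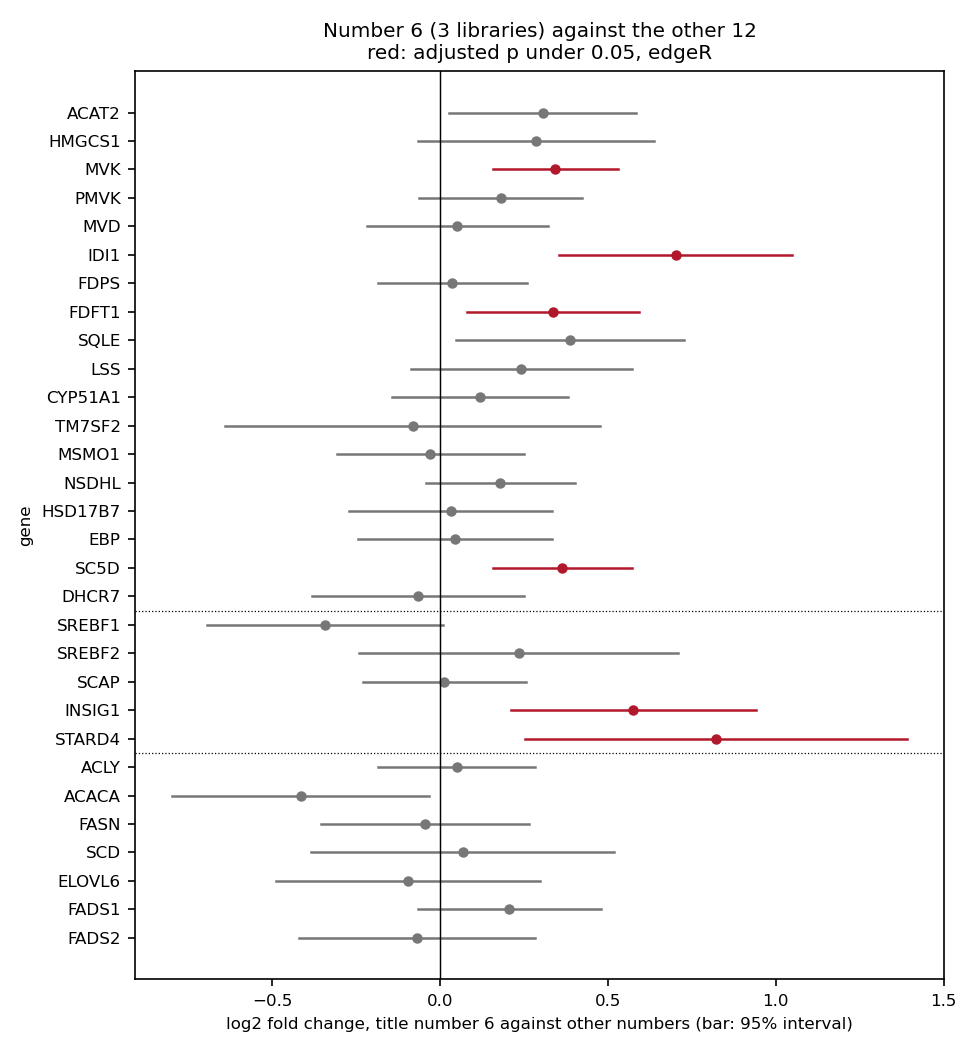
Log2 fold change of each member (y axis) in title number 6 (3 libraries) against the other 12, with its 95% interval as a bar. The 6 members in red have an adjusted p under 0.05 by edgeR, and the fold changes run from -0.42 for ACACA to 0.82 for STARD4.

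The calls in number 6 depended on its own libraries. Without strongly adherent library 6, 2 members were called (IDI1 and FDFT1), and the calls over all genes went from 4018 to 1642, or 10.7%. Without unsorted library 6 there were 3 (IDI1, MVK and ACACA, which fell), against 21.6% of all genes, so neither regulator was called in either case. Without weakly adherent library 6 there were 5 (IDI1, MVK, SC5D and STARD4, and TM7SF2, which fell), against 22.3% of all genes. STARD4 also lost its call without strongly adherent library 4, unsorted library 4 or unsorted library 7-8, INSIG1 without weakly adherent library 6, and FDFT1 in 10 of the 15 fits that left out 1 library. IDI1 was called in all 25 alternative fits, and the adjusted p of the 6 genes ranged up to 0.0405 for IDI1, 0.0629 for MVK, 0.0643 for SC5D, 0.0876 for INSIG1, 0.248 for STARD4 and 0.345 for FDFT1. Muscle markers were higher in number 6 than in 11 of the other libraries, with 179 to 1125 CPM in sum. Strongly adherent library 5, with 2909 CPM of these markers, had the lowest level of IDI1, INSIG1 and STARD4. In number 6 fibroblast markers (12 genes) summed to 532 to 855 CPM against 753 to 1495 CPM, and endothelial markers (10 genes), most of them ESAM, to 197 to 205 CPM against 37.5 to 165 CPM. The part of these markers in the member results was not tested.

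Genes around these pathways were counted from lists chosen for this description, to be read against the 26.5% of all genes called in number 6. The shares called were 25% of other sterol synthesis genes, 35% of sterol uptake, efflux and storage genes, 15.4% of SREBP control genes, 22.2% of other fatty acid synthesis genes and 22.2% of fatty acid oxidation genes. Of 12 other tested genes of sterol, isoprenoid and ubiquinone synthesis, 2 rose and 1 fell in number 6. PDSS1 and NUS1, which extend isoprenoid chains for ubiquinone and dolichol, rose with log2 fold changes of 0.52 ± 0.14 and 0.39 ± 0.09. LBR, a nuclear envelope protein that shares its sterol reductase activity with TM7SF2, fell by 0.50 ± 0.16 on the log2 scale. Of 13 genes that control SREBP processing, 0 rose and 2 fell: MBTPS1, the protease that makes the first cut in SREBP, had -0.38 ± 0.13, and ERLIN2 -0.47 ± 0.15. All 5 passed edgeR's test, with adjusted p from 0.00713 to 0.0366.

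Of 20 genes of sterol uptake, efflux and storage, 2 rose and 5 fell in number 6. ABCA1, which exports cholesterol to lipoproteins and is a known target of the oxysterol receptors, was at 10.9, 4.53 and 8.45 CPM in number 6 (strongly adherent, then unsorted, then weakly adherent). The other 12 libraries ran from 15.6 to 50.9 CPM with a median of 30.3 CPM, so the groups did not overlap. The log2 fold change of ABCA1 was -2.02 ± 0.21 (edgeR adjusted p = 3.82e-05). ABCG1, a related exporter, was at 0.535, 0.127 and 1.69 CPM in number 6 and at 2.66 to 7.46 CPM elsewhere (-2.71 ± 0.56, edgeR adjusted p = 0.00294). These exporters were thus below every other library in all 3 libraries of number 6. NPC2, a lysosomal cholesterol-binding protein, fell (-0.74 ± 0.19, edgeR adjusted p = 0.0107). Its partner NPC1, named after its values were seen, rose (0.73 ± 0.20, edgeR adjusted p = 0.0153), with 89.8 to 103.5 CPM against 28.2 to 80.6 CPM.

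On the fatty acid side, 3 of 27 other tested genes of fatty acid and glycerolipid synthesis rose and 3 fell in number 6. The elongase gene ELOVL7 stood at 0.374 to 0.983 CPM in number 6 and at 3.62 to 28.7 CPM elsewhere, a log2 fold change of -4.07 ± 0.65 (edgeR adjusted p = 0.000797). MLXIPL, the carbohydrate-responsive transcription factor of lipogenesis, had -1.04 ± 0.34. MID1IP1, known to promote the assembly of acetyl-CoA carboxylase, had 0.69 ± 0.13, and PTPLA, a dehydratase of chain elongation, had 0.64 ± 0.18. Of 18 genes of fatty acid oxidation, 2 rose (ETFDH with 0.57 ± 0.11 and HADHA with 0.34 ± 0.11) and 2 fell (CPT2 with -0.53 ± 0.16 and HADH with -0.52 ± 0.15). The 8 genes named in this paragraph passed edgeR's test.

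The adhesion classes were compared in a fit with the class as the only term, which asks whether tumours of sorted cells differed in these genes. No member passed in any of the 3 comparisons, and neither did any other gene: the calls by edgeR's quasi-likelihood test were 0 in each, 0% of the 15190 genes tested, and DESeq2 with the same term called 0 as well. At an unadjusted p under 0.05 there were 5 members for strongly adherent against unsorted tumours (16.7%, against 3.77% of all genes), 5 for weakly against strongly adherent (16.7%, against 2.41%) and 0 for weakly adherent against unsorted (against 0.533%). The count for weakly against strongly adherent rested on single libraries. It was 0 without strongly adherent library 5 (against 1.52% of all genes). It was 1 without strongly adherent library 4 (against 2.41%), weakly adherent library 6 (against 1.76%) or weakly adherent library 7-8 (against 2.05%). Without number 6 it was 2 (against 5.34%), and in a fit of only the classes compared it was 1 (against 1.88%). For strongly adherent against unsorted, 3 to 6 members were left when any 1 library was left out. The count was 3 without strongly adherent library 4 (against 3.32%) or unsorted library 6 (against 4.8%), and 4 without strongly adherent library 5 (against 2.77%). In a fit of only the classes compared it was 6 (against 3.36%). Without number 6 it was 4, and the share of all genes rose to 9.32%. Without number 6 and strongly adherent library 5 together it was 1 (against 2.11%). Both comparisons share the strongly adherent libraries, so they are not separate observations. The genes of the related lists also gave 0 calls in the 3 comparisons.

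Against unsorted tumours, strongly adherent tumours had lower estimates for 17 of 18 sterol enzymes, all 5 regulators and 4 of 7 fatty acid enzymes. The median log2 fold changes were -0.18, -0.22 and -0.21 for these 3 sets, and 0.02 over all genes tested. PMVK, which adds the second phosphate to mevalonate, stood at 21.7, 18.2, 26.0 and 22.3 CPM in strongly adherent libraries 4, 5, 6 and 9. In unsorted libraries 4, 5, 6, 7-8 and 9 it stood at 31.5, 32.4, 27.7, 29.4 and 28.6 CPM. The groups did not overlap, and the log2 fold change was -0.44 with a 95% interval from -0.71 to -0.17 (adjusted p = 0.975 by edgeR's quasi-likelihood test). FDPS, farnesyl diphosphate synthase, was at 83.5, 69.4, 77.4 and 83.9 CPM in the strongly adherent and at 100.1, 105.8, 96.2, 97.8 and 101.6 CPM in the unsorted libraries in the same order. It did not overlap either, with a log2 fold change of -0.35 (interval -0.58 to -0.12, edgeR adjusted p = 0.975). PMVK and FDPS are 6.67% of the members, where 0.876% of all genes tested were lower in strongly adherent tumours without overlap. No member was higher without overlap, against 0.54% of all genes.

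ACAT2 was at 25.7, 26.2, 28.4 and 32.9 CPM in the strongly adherent and at 32.1, 36.7, 47.8, 35.9 and 37.1 CPM in the unsorted libraries. Only strongly adherent library 9 and unsorted library 4 overlapped, and the log2 fold change was -0.42 (interval -0.77 to -0.08). FADS2, which desaturates dietary polyunsaturated fatty acids, was at 108, 96.5, 88.5 and 150.6 CPM in the strongly adherent and at 137, 204, 162, 150.6 and 159 CPM in the unsorted libraries. Strongly adherent library 9 overlapped the unsorted libraries while the other 3 of its class lay below them, and the log2 fold change was -0.55 (interval -0.92 to -0.18). INSIG1 was at 35.7, 21.6, 49.4 and 44.8 CPM against 37.6, 46.3, 70.0, 56.1 and 45.8 CPM. Its log2 fold change of -0.44 (interval -0.96 to 0.09) became -0.24 without strongly adherent library 5. Without number 6 and strongly adherent library 5, the libraries that stand apart in CDH1 and in muscle markers, the medians of the sterol enzymes, regulators and fatty acid enzymes were -0.15, -0.077 and -0.00505. Muscle markers had higher estimates in strongly adherent tumours for 16 of 17 tested (median 2.09, 0 called), and their part in these values was not tested. Their sum was 2909 and 453 CPM in strongly adherent libraries 5 and 6, but 13.6 and 16.2 CPM in libraries 4 and 9 of that class. It was 1125 CPM in unsorted library 6 and 6.81 to 15.2 CPM in the other unsorted libraries. Over all 30 members the intervals of this comparison reached from -1.06 for STARD4 to 0.61 for ELOVL6.

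Weakly adherent against strongly adherent tumours gave estimates above 0 for 13 of 18 sterol enzymes, 4 of 5 regulators and 5 of 7 fatty acid enzymes. The medians were 0.11, 0.12 and 0.18, against -0.02 over all genes tested. Without strongly adherent library 5 the sterol median was 0.053 and the regulator median 0.023. Muscle markers had lower estimates in weakly adherent tumours for 15 of 17 tested markers (median log2 fold change -4.73, 0 called). This was not shared by the whole class. Their sum was 2909 and 453 CPM in strongly adherent libraries 5 and 6, and 13.6 and 16.2 CPM in strongly adherent libraries 4 and 9. It was 179 CPM in weakly adherent library 6 and 9.69 to 13.0 CPM in the other weakly adherent libraries. A list of genes read against the labelled line was lower for 11 of 12 tested (median -0.20, 0 called). That list holds VIM but also epithelial genes such as CDH1 and EPCAM, so it does not measure how many cells of the line were present. The part of both lists in the member values was not tested. ACAT2 had 39.1, 28.6, 47.1, 43.6, 35.4 and 28.0 CPM in weakly adherent libraries 4, 5, 6, 7-8, 9 and 10, a log2 fold change of 0.38 (interval 0.05 to 0.72). PMVK had 0.30 (0.03 to 0.56), FDPS 0.26 (0.04 to 0.48), FADS2 0.37 (0.02 to 0.73), and FADS1, the desaturase that follows FADS2, 0.30 (0.00 to 0.60). None passed after adjustment in edgeR. For ACAT2 and FDPS the lowest weakly adherent library was number 10. No member was without overlap in this comparison (against 0.165% of all genes higher and 0.125% lower). INSIG1 was at 54.5, 34.9, 70.0, 51.5, 52.9 and 38.1 CPM in the same order, with 0.41 (interval -0.09 to 0.91), which became 0.22 without strongly adherent library 5.

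No difference between weakly adherent and unsorted tumours was called, and no member was without overlap between them (against 0.0263% of all genes higher and 0.0461% lower). The medians were -0.10 for the sterol enzymes, -0.04 for the regulators and -0.03 for the fatty acid enzymes, and 0.00 over all genes. The regulator median was 0.041 without weakly adherent library 10, and the fatty acid median 0.0083 without number 6. The intervals of the 30 members reached from -0.72 for STARD4 to 0.74 for TM7SF2 on the log2 scale. The member of smallest p was MVD, the decarboxylase that ends the mevalonate steps, with a log2 fold change of -0.23 (interval -0.48 to 0.02). SCD was at 287, 132, 190.1, 175, 186 and 128 CPM in weakly adherent libraries 4, 5, 6, 7-8, 9 and 10 and at 156, 152, 199, 222 and 169 CPM in the unsorted ones. Its log2 fold change was 0.03 (interval -0.39 to 0.45), with the highest and the lowest level both in weakly adherent libraries.

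Libraries that share a title number were also set side by side, as differences of log2 CPM. The title numbers are not shown to pair the libraries, so these differences are a description. In each of numbers 4, 5, 6 and 9, the strongly adherent library was lower than the unsorted one for 12 of 30 members (40%, against 9.03% of all genes), and it was higher in each for 0 members (against 10.7%). The 12 were 9 sterol enzymes (ACAT2, PMVK, MVD, FDPS, FDFT1, SQLE, CYP51A1, NSDHL and EBP), INSIG1, ACLY and FADS2. Some differences were close to nothing, as for CYP51A1 (-0.002) and MVD (-0.026) in number 9, EBP (-0.017) in number 6 and NSDHL (-0.026) in number 4. FDPS differed by -0.26, -0.61, -0.31 and -0.28 in numbers 4, 5, 6 and 9, a mean of -0.36 ± 0.16 (SD, 4 numbers). FADS2 differed by -0.34, -1.08, -0.87 and -0.08, and INSIG1 by -0.08, -1.10, -0.50 and -0.03. They are spread along the pathway: HMGCS1, MVK and IDI1 of its early part and SC5D and DHCR7 of its end were not among them.

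The strongly adherent library was lower for 24, 25 and 27 of 30 members in numbers 4, 5 and 6, and for 15 in number 9. The shares of all genes lower in each single number are not given here, so these counts are not shown to be particular to the members. Without number 9 the members lower in each remaining number were 19. A sign shared over fewer numbers is easier to meet for any gene, so no conclusion is drawn from this rise. ACLY, the first fatty acid step, differed by -0.16, -0.02, -0.57 and -0.18 in numbers 4, 5, 6 and 9. FASN had 0.07, 0.45, -0.22 and 0.27, and ELOVL6 -0.02, 0.96, -0.68 and 0.11. FASN and ELOVL6 thus differed in opposite directions in numbers 5 and 6.

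**Figure D4:**
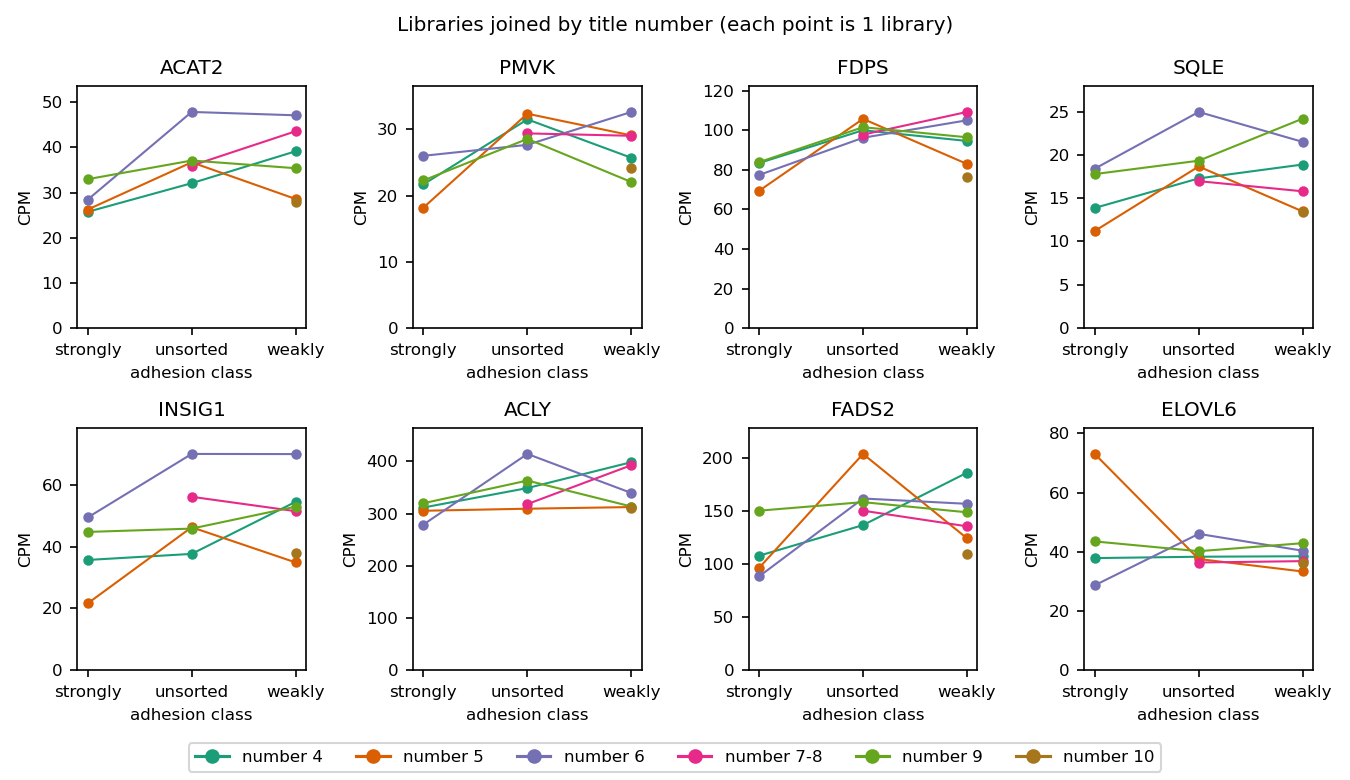
CPM (y axis, from 0) of 8 members in strongly adherent, unsorted and weakly adherent libraries (x axis), with the libraries of a title number joined by a line and number 10 as a single point. In numbers 4, 5, 6 and 9 the line rises from the strongly adherent to the unsorted library for ACAT2, PMVK, FDPS, SQLE, INSIG1, ACLY and FADS2, and for ELOVL6 it falls in number 5 and rises in number 6.

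The weakly adherent library was higher than the strongly adherent one in numbers 4, 5, 6 and 9 for 8 of 30 members (26.7%, against 5.17% of all genes) and lower in each for 0 (against 6.16%). The 8 were ACAT2, IDI1, FDPS, SQLE, INSIG1, SREBF2, SCD and FADS1. INSIG1 differed by 0.61, 0.69, 0.50 and 0.24 in that order, and SCD by 0.78, 0.36, 0.40 and 0.04. SREBF2 differed by 0.68, 0.57, 0.19 and 0.00, so that its difference in number 9 was close to nothing. Without number 9 the count was 16, and again a sign shared over fewer numbers is easier to meet for any gene. Between weakly adherent and unsorted libraries, which share 5 numbers, 0 members were higher in all and 0 lower in all (against 1.38% and 1.52% of all genes). In number 5 alone the weakly adherent library was lower for 28 of 30 members, the exceptions being ACLY and ACACA, while in number 4 it was lower for 9. Shares of all genes in these single numbers are not given here, so the counts are not shown to be particular to the members.

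The sterol and fatty acid branches did not always move together between libraries. In strongly adherent library 5 the mean log2 CPM of the 18 sterol enzymes was 0.32 under that of the median library, the lowest of all. The mean of the 7 fatty acid enzymes there was that of the median library. Within this branch SCD was at its lowest level of all libraries (103 CPM), and ACACA (89.5 CPM), FASN (270 CPM) and ELOVL6 (73.0 CPM, next highest 46.0 CPM) at their highest. For ACACA, weakly adherent library 7-8 was practically level, with log2 CPM 0.567 above the gene's median in both libraries. The same library held the highest sum of muscle markers, whose part in these values was not tested. In strongly adherent library 6 the fatty acid mean was lowest, 0.39 under the median library, with the sterol mean 0.09 under it. Weakly adherent library 10 was low in both, with 0.21 under the median for sterol and 0.33 under it for fatty acid enzymes, and it held the lowest level of 6 members (20%, against 10.6% of all genes) and the highest of 0 (against 8.84%). Its 6 were HMGCS1, MVD, LSS, SREBF2, FASN and FADS1. Weakly adherent library 6 had the highest sterol mean, 0.25 above the median library, and weakly adherent library 4 the highest fatty acid mean, 0.29 above it.

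**Figure D5:**
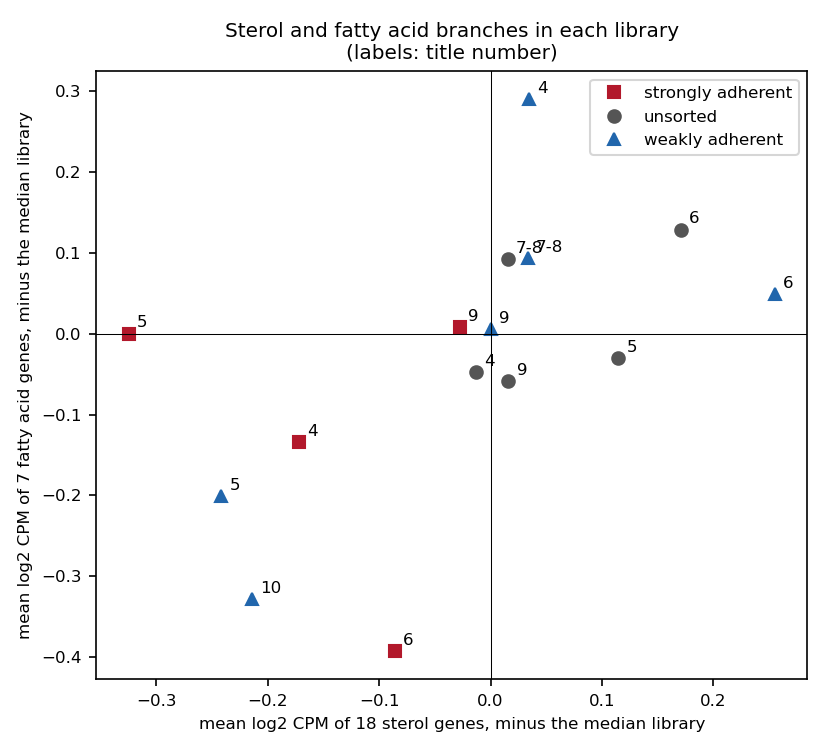
Mean log2 CPM of the 18 sterol enzymes (x axis) and of the 7 fatty acid enzymes (y axis) in each of 15 libraries, each minus the median library, with marker and colour for the adhesion class and the title number beside each point. Strongly adherent library 5 lies far left at the median of the y axis, and strongly adherent library 6 lies lowest on the y axis.

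Some members have relatives in the table whose reads could be shared. FDPSP2, a pseudogene of FDPS, had at most 0.242% of the count of FDPS, and HSD17B7P2 at most 12.9% of that of HSD17B7. EBPL, a homologue of EBP, had at most 43.6% of the count of EBP. STARD4-AS1 had at most 13.8% of the count of STARD4, and the strand setting of the counting is not stated in the labels. Host reads from mouse that aligned to human genes may be among the counts of any member.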

How the data were processed

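Bulk RNA of 15 tumour libraries was sequenced as 50 bp single-end reads from a stranded kit, per the labels' protocols. The submitters' processing notes name STAR, HTSeq, cutadapt, FastQC and DESeq2, without versions, and build hg19. The authors deposited raw counts per human gene symbol, the basis of all tests here, and a table of log2 values. Each deposited log2 value equals log2 of the count divided by a median-of-ratios size factor plus 1, within 5.15e-14, and these served the limma-trend alternatives.

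Libraries were grouped by the labelled adhesion class. Counts were fitted in R 4.3.3 with edgeR 4.0.16 (TMM, filterByExpr, robust quasi-likelihood, two-sided, Benjamini-Hochberg over 15190 genes, threshold 0.05), all 15 libraries in a single fit. The class was the only term, except that number 6 was tested with the class beside it. Standard errors are the absolute log2 fold change over the square root of F, and the 95% intervals built from them are approximate. Log2 CPM used a prior count of 2. The labels name no molecular identifiers, and depth, 30372619 to 45434799 counts per library, limits the members less than the spread between libraries does. No 2 libraries of a class agreed within sampling noise (31 pairs).

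The members, lists and tests were chosen with earlier results of these data known. Members got their value in every library where they passed a test, were among the 3 of smallest p of their branch, or were ACAT2, HMGCS1, FDFT1, LSS, INSIG1, SREBF1, SREBF2, ACLY, FASN or SCD; some are given by range. From other lists up to 4 called genes of largest fold were named, and not every gene the rule picks is used. Lists also covered myeloid markers (12 genes, 74.4 to 206 CPM in sum) and liver markers (8 genes, 43.6 to 97.8 CPM, nearly all SERPINA1). A further list held genes read against the labelled line, among them VIM, CDH1 and EPCAM. Alternatives were other scalings and filters, DESeq2 1.42.0, limma 3.58.1, a replicate block, and libraries left out. The code of the fits was run on simulated data with a smaller spread than these data and no effect shared by a title number. That run does not measure the error rates in these data. The reference given was of mouse, so no sequences or coordinates of the human genes are shown, and promoter motifs were not searched.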

Additional observations from a re-analysis of the deposited data

Results flagged for a closer look

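In each adhesion class of 4 to 6 libraries, a member was marked where its highest or lowest library stood far from the nearest other by Dixon's 95% criterion on log2 CPM. Chance marks about 1 in 20 such groups, which is 4.5 of the 90 examined, and 4 were marked. IDI1 stood at 117 CPM in unsorted library 6, where the other unsorted libraries had 59.7 to 67.5 CPM. LSS stood at 49.6 CPM in weakly adherent library 10, against 85.2 to 102 CPM in the other weakly adherent libraries. SREBF2 was also low in weakly adherent library 10, at 48.8 CPM against 89.0 to 125 CPM. SREBF1 was high in weakly adherent library 4, at 82.3 CPM against 51.8 to 59.1 CPM.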

How the results depend on the processing

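No member was called between adhesion classes in any alternative, with a smallest adjusted p of 0.148 (FADS2 in strongly adherent against unsorted, DESeq2 with the replicate block). The medians of the sterol enzymes kept their signs without number 6. With the title number as replicate block, edgeR called 10 of the 30 members in number 6, against 27.9% of all genes. These include 7 sterol enzymes, and HMGCS1, LSS, SQLE and SREBF2 were added by the block. There number 6 is set against the mean of the other numbers with the spread within numbers as error. The log2 fold change of FASN in number 6 was 0.0061 with the block, without a call. For weakly adherent against unsorted, the log2 fold change of SREBF2 with the block was 0.030 by edgeR and 0.026 by DESeq2, also without a call. DESeq2 with the block called 23 genes for strongly adherent against unsorted and 30 for weakly against strongly adherent, where edgeR called 0. At an unadjusted p under 0.05, edgeR with the block gave 9 members for weakly against strongly adherent (against 6.78% of all genes). It gave 8 for strongly adherent against unsorted (against 8.26%) and 0 for weakly adherent against unsorted (against 1.13%). Same-numbered libraries had correlated deviations from their class mean over 0.1 in 11 of 13 pairs (lowest 0.0164). Between libraries of different number and class the median correlation was -0.0264. Of the 14 libraries with a same-numbered partner, 9 correlated best with their own number, so the numbers were not taken as pairs. Without the adhesion term, 1 regulator was called in number 6, where 26.9% of all genes were called.

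Without number 6, 1 member was higher in every number for strongly adherent against unsorted, 1 higher and 2 lower for weakly adherent against unsorted. Without number 6 and strongly adherent library 5, these were 5, 1 and 2, and 16 were higher for weakly against strongly adherent. Fewer numbers make a shared sign easier to meet for any gene, so these counts are not comparable with those of all numbers. Without number 6 and strongly adherent library 5, the fatty acid median for strongly adherent against unsorted was -0.00505. The log2 fold change of STARD4 in that comparison was 0.16, and that of SREBF2 for weakly against strongly adherent was -0.067.

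With each library left out in turn, calls in number 6 ranged from 1642 to 4543 genes, 2 to 5 sterol members, 0 to 2 regulators and 0 to 1 fatty acid members, and members without overlap from 2 to 6. For strongly adherent against unsorted, members lower in every number ranged from 12 to 19, higher from 0 to 1, and without overlap from 2 to 6. For weakly against strongly adherent, 7 to 16 were higher in every number. For weakly adherent against unsorted, 0 to 3 were lower and 0 to 1 higher. Where the library left out removed a number from the comparison, a shared sign was easier to meet for any gene. In number 6, log2 fold changes ranged from -0.067 to 0.14 for ACLY, -0.28 to 0.19 for ELOVL6 and -0.14 to 0.087 for FASN. For weakly adherent against unsorted they ranged from -0.15 to 0.10 for SREBF1 and -0.18 to 0.041 for SREBF2. SREBF2 ranged from -0.030 to 0.32 for weakly against strongly adherent, and STARD4 from -0.50 to 0.11 for strongly adherent against unsorted. The cause of these shifts was not tested.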
